A study of Homo sapiens with 4 samples.

Results

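The actin cytoskeleton transcripts described here are those of 7 genes: ACTB, ACTG1, TPM1, VIM, MYH9, CORO1C and ANXA2. Their HuR peaks were chosen by position, as all peaks that overlap the hg19 span of one of the genes by at least 1 bp. The genes themselves were picked from a study whose peak lists had already been examined, so their peak numbers, lengths and scores are given as a description with no test. In all, 64 of the 47930 peaks listed at 0 Gy and 67 of the 36216 peaks listed at 5 Gy met this rule. VIM had no peak in either list, so the peaks belong to 6 of the 7 genes.

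The study recovered RNA with an antibody to HuR, or with control immunoglobulin (IgG), from WS1 cells that received 0 Gy or 5 Gy of X-rays, and sequenced it (RIP-seq). WS1 is a line of human skin fibroblasts. Each of the 4 groups (HuR and IgG at either dose) held 1 library, all from that line, and the labels do not say how long after irradiation the cells were collected. A peak list was deposited for each dose, made from the HuR library over the IgG library of the same dose. No difference between the doses therefore has a replicate check, and no p-value was computed. The depth of the libraries is unknown. The lists give no level in IgG and no expression, so more HuR bound to each RNA and more of that RNA cannot be told apart.

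HuR, the product of ELAVL1, is a ubiquitous RNA-binding protein that recognises U-rich and AU-rich stretches, mostly in introns and 3′ untranslated regions, and is known for stabilising the mRNAs it binds. Beta-actin mRNA is among its known targets. In fibroblasts, actin filaments with tropomyosin and non-muscle myosin form stress fibres, coronins help to turn filaments over, and vimentin forms a separate network of intermediate filaments. Annexin A2 ties actin to membranes.

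The score of a peak is the authors' own value. It starts at 60 in both lists, to the nearest whole number, and 2481 peaks at 0 Gy and 2000 at 5 Gy share a score of 3100. Peaks at that tie are not ordered among each other. Scores grow with depth, so each peak was also ranked within its list, as its percentile among all peaks of that list. Scores of both doses printed side by side, and minimum scores applied to both lists, are listed values uncorrected for depth. Distances are given from the 5′ end of a gene, by its known strand. The lists carry no strand and no gene, and no exon or intron was assigned to a peak.

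The promoter windows of ANXA2, which had the longest coverage in kb of the 7 genes, and of VIM, which had no peak, are printed here because the coverage of ANXA2 ran up to its 5′ end. Each window holds 250 bases before and, in capitals, 50 bases after the transcript start in the RefSeq annotation of GRCh38.p14, read 5′ to 3′ on the strand of the gene. The ANXA2 window is chr15:60397937-60398236 on the minus strand and the VIM window is chr10:17227991-17228290 on the plus strand. These positions were not converted to hg19, the build of the peaks.
ANXA2: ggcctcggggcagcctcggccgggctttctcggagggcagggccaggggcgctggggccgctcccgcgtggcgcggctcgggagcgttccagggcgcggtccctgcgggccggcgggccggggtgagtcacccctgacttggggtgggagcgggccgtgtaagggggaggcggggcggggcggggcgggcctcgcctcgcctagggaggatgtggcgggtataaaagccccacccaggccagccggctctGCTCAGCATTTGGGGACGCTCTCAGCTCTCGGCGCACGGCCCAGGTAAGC
VIM: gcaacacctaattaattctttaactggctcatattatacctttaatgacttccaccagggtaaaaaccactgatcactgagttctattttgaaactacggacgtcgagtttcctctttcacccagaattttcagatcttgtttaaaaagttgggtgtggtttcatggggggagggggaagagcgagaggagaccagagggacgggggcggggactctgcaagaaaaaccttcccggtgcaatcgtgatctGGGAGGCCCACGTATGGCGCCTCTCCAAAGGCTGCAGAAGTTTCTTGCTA
G and C made up 76.0% of the ANXA2 window and 48.0% of the VIM window, against a median of 58.7% over all windows of that table. Of the motifs searched on both strands, ATTTA was in neither window. TTTTT was absent from the ANXA2 window and occurred 3 times in the VIM window, always on the strand opposite to the gene. Over all 35116 windows, 39.2% held TTTTT and 30.5% held ATTTA on either strand. RefSeq windows were at hand for 6 of the 7 genes (not ACTB). The 250 bases before the start lie outside the transcript that begins there. A link between these motif counts and HuR peaks was not tested.

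CORO1C carried more peaks at 5 Gy, whereas the other genes with peaks carried as many or fewer. CORO1C had 20 peaks at 0 Gy and 32 at 5 Gy. MYH9 had 13 and 9 peaks, TPM1 had 13 and 10, ANXA2 had 14 and 13, ACTG1 had 2 and 1, and ACTB had 2 at both doses. These numbers depend on how peaks are split: with peaks within 1 kb joined, TPM1 turned to 6 and 8, MYH9 to 5 and 7, and ANXA2 to 2 and 4, while CORO1C had 14 and 16. Summed, the peaks at 5 Gy numbered 104.7% of those at 0 Gy (95% interval 74.4 to 147.2, counting error only), against 75.6% for the lists in full. Without CORO1C the numbers were 44 and 35, or 79.5% (95% interval 51.2 to 123.6). CORO1C alone stood at 160.0% (95% interval 92.2 to 277.8). These intervals treat peaks as independent, although peaks of 1 gene share a transcript, and since CORO1C is singled out for its difference they are no test. At a score of at least 100 the sum over the genes turned to below 100%, where 44 peaks at 0 Gy faced 41 at 5 Gy (93.2%). The numbers of single genes also depend on list size. With the 0 Gy list cut to its 36216 highest-scoring peaks, as many as at 5 Gy, TPM1 had 10 peaks at both doses, MYH9 9 and ANXA2 13. ACTB and ACTG1 kept their numbers, and CORO1C had 14 and 32.

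In covered length the genes differed less between doses, again except CORO1C. The 7 genes together were covered over 73.78 kb at 0 Gy and 83.47 kb at 5 Gy (113.1%, against 91.7% for the lists in full). The length in CORO1C was 10.26 kb at 0 Gy and 20.47 kb at 5 Gy, or 199.6%. Leaving CORO1C out brought the sum to 99.2%. The other genes with peaks lay between 97.0% (ANXA2, 38.68 and 37.52 kb) and 109.9% (ACTG1, 2.36 and 2.59 kb). A higher median peak length at 5 Gy was not particular to CORO1C, although such medians compare different sets of peaks. Over pairs of peaks lying only against each other in the full lists, the median ratio of lengths was 1.03. From 0 Gy to 5 Gy its median peak length rose from 401.5 to 530 bp, and that of the full lists from 448 to 559 bp. The median of ACTG1 rose from 1206.5 bp to the 2633 bp of its single 5 Gy peak. The medians of TPM1, MYH9 and ANXA2 fell, and that of ACTB barely changed (1693.5 and 1695.5 bp).

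**Figure D1:**
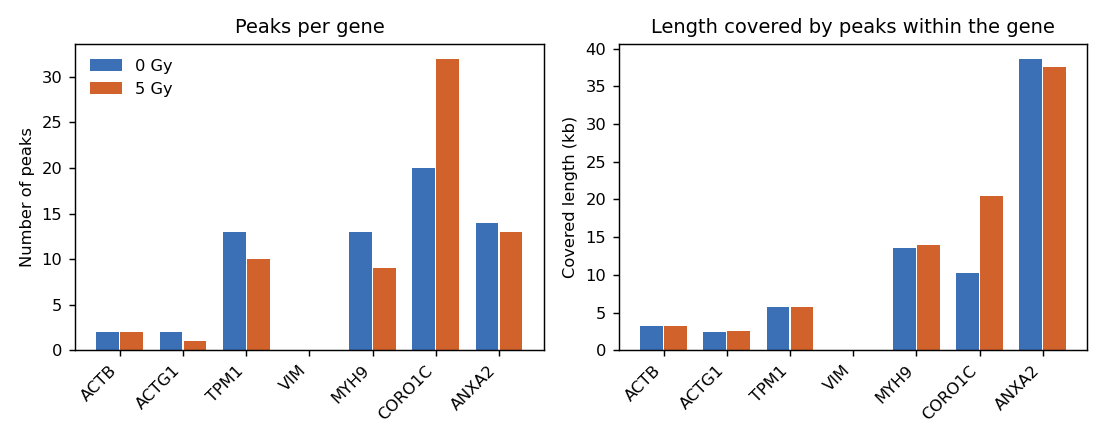
Bars give, for each of the 7 genes, the number of peaks (left) and the length covered by peaks within the gene in kb (right) in the 0 Gy list and the 5 Gy list, with 1 HuR library over 1 IgG library per dose and no error bars. CORO1C has 20 peaks at 0 Gy and 32 at 5 Gy, ANXA2 has the longest coverage at both doses, and VIM has no bar.

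Most peaks of these genes lay against a peak of the other list, at 0 Gy as at 5 Gy. Of the 64 peaks at 0 Gy, 52 overlapped a 5 Gy peak (81.2%, Wilson 95% interval 70.0 to 88.9), where 58.1% of the whole list did. Of the 67 peaks at 5 Gy, 43 overlapped a 0 Gy peak (64.2%, 95% interval 52.2 to 74.6), where 73.0% of the whole list did. Both intervals treat peaks as independent, although peaks of the same gene share a transcript. The genes were also picked with these lists known, so setting a share beside that of the whole list is no test. CORO1C held 19 of the 24 unmatched 5 Gy peaks and 6 of the 12 unmatched 0 Gy peaks. The rest lay in MYH9 (4 at 0 Gy and 3 at 5 Gy) and TPM1 (2 and 2), and every peak of ACTB, ACTG1 and ANXA2 overlapped a peak of the other list. Those genes were covered over 73.8% to 93.5% of their spans, which leaves little room for an unmatched peak. A match can also be slight: a TPM1 peak of 483 bp at 0 Gy shared 14 bp. With 50% of both peaks required, 43.8% at 0 Gy and 41.8% at 5 Gy matched, and the share of the whole lists under that rule was not computed. Scores of unmatched peaks ranged between 60.06 and 129.29 in the 0 Gy list and between 61.92 and 220.3 in the 5 Gy list. No peak of these genes with a score of at least 1000 was unmatched. How many such peaks of the whole lists were unmatched was not computed, so this is no trait of these genes.

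High scores were found in 5 of the genes at the tie and in MYH9 below it. A score of at least 1000 was reached by 19 of 64 peaks at 0 Gy (29.7%, 95% interval 19.9 to 41.8), against 12.2% of the list, and by 14 of 67 at 5 Gy (20.9%, 95% interval 12.9 to 32.1), against 13.1% of the list. The tie at 3100 held 11 peaks at 0 Gy (17.2%, 95% interval 9.88 to 28.2), against 5.35% of the list at or above 3100. At 5 Gy it held 8 (11.9%, 95% interval 6.18 to 21.8), against 5.72%. The intervals again treat peaks of the same gene as independent. Because the genes were picked with these lists known, these shares support nothing beyond themselves. At both doses the tied peaks came from the same 5 genes, ACTB, ACTG1, TPM1, CORO1C and ANXA2. MYH9 had none.

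**Figure D2:**
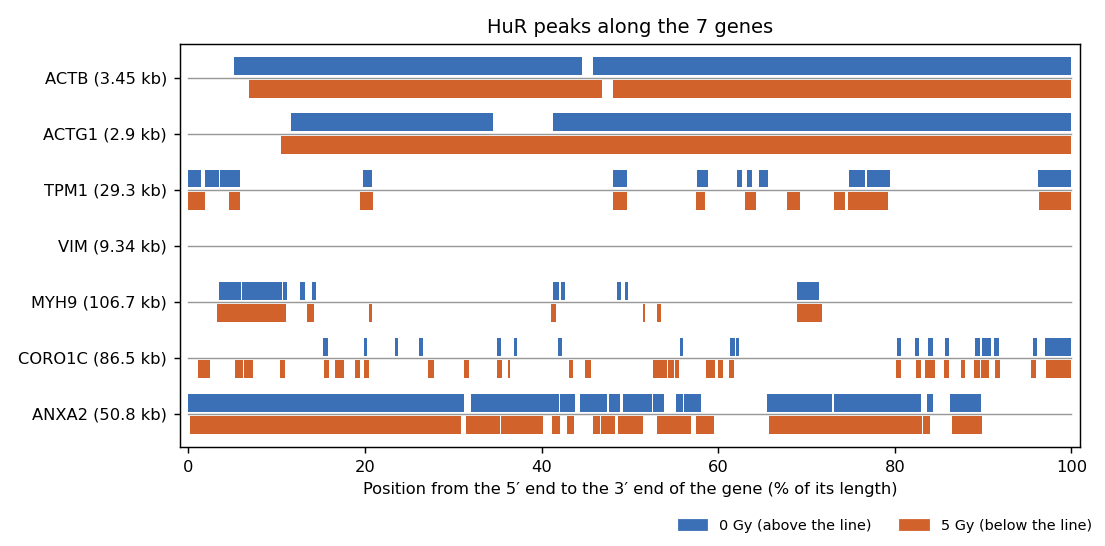
Each row is a gene drawn from its 5′ end to its 3′ end in percent of its length, with 0 Gy peaks above the line and 5 Gy peaks below it. ACTB and ACTG1 are covered nearly throughout, TPM1 in separate short stretches, MYH9 mainly near the 5′ end, CORO1C most densely at the 3′ end, ANXA2 over most of its length except the 3′ end, and VIM nowhere.

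ACTB and ACTG1 encode the cytoplasmic beta- and gamma-actins, which polymerise into the filaments of non-muscle cells. ACTB (chr7:5566779-5570232, minus strand, 3.45 kb) was covered over 93.5% of its length at 0 Gy and 91.9% at 5 Gy. At 0 Gy its peaks were chr7:5566622-5568649 (2028 bp) and chr7:5568694-5570052 (1359 bp). At 5 Gy they were chr7:5566563-5568571 (2009 bp) and chr7:5568614-5569995 (1382 bp). All of these scored 3100. Coverage of ACTB thus nearly coincided at the doses, and 95.6% of the length covered at either dose was covered at both. The peaks began 180 bp from the 5′ end at 0 Gy and 237 bp from it at 5 Gy, and ran past the 3′ end by 157 and 216 bp.

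ACTG1 (chr17:79476997-79479892, minus strand, 2.9 kb) was covered over 81.5% at 0 Gy and 89.5% at 5 Gy. Its peaks at 0 Gy were chr17:79476944-79478695 (1752 bp) and chr17:79478894-79479554 (661 bp), and both scored 3100. A single 5 Gy peak, chr17:79476957-79479589 (2633 bp, score 3100), lay over both and over the gap between them. The lower peak number of ACTG1 at 5 Gy thus went with a covered length 109.9% of that at 0 Gy. ACTB and ACTG1 have many processed copies in the genome. The RefSeq table names 14 pseudogenes after ACTB and 21 after ACTG1, and how reads that match several copies were placed is not given in the sources used here.

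TPM1 encodes a tropomyosin, a coiled-coil protein that lies along actin filaments and governs the access of myosin and other partners. Its span (chr15:63334838-63364111, plus strand, 29.3 kb) was covered over 19.6% at 0 Gy and 19.4% at 5 Gy, in short peaks with a median length of 444 bp at 0 Gy and 416.5 bp at 5 Gy. Both ends of TPM1 carried tied peaks at both doses. At the 5′ end these were chr15:63334807-63335264 (458 bp) at 0 Gy and chr15:63334810-63335395 (586 bp) at 5 Gy, which began 31 and 28 bp before the first base of the gene. At the 3′ end they were chr15:63363002-63364149 (1148 bp) at 0 Gy and chr15:63363023-63364379 (1357 bp) at 5 Gy, which passed the last base by 38 and 268 bp.

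Between the ends, TPM1 held a series of isolated peaks that recurred at both doses. The one starting 5.8 kb from the 5′ end scored 713.53 at 0 Gy and 563.31 at 5 Gy. The next, starting 14.1 kb from the 5′ end, scored 2064.63 and 1865.9. The third, 16.9 kb from the 5′ end at 0 Gy, scored 2005.31 and 974.82. All 3 thus kept a percentile of at least 80.7 in their list. The second peak tied at 3100 near the 5′ end at 0 Gy, chr15:63335877-63336553 (677 bp), faced a shorter 5 Gy peak, chr15:63336172-63336562 (391 bp, score 1384.41). The doses also differed between 18 and 24 kb, where the 6 peaks at 0 Gy spanned 1.94 kb with scores up to 125.29, and the 4 at 5 Gy spanned 2.44 kb with scores up to 375.95. There, 1 peak of 1325 bp at 5 Gy (chr15:63356712-63358036) lay over 3 separate peaks at 0 Gy. The annotation also places the antisense RNA TPM1-AS over TPM1, and without strand its reads cannot be told apart from those of TPM1.

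MYH9 encodes the heavy chain of non-muscle myosin IIA, the motor that pulls on actin filaments. Its span (chr22:36677323-36784063, minus strand, 106.7 kb) was covered over 12.7% at 0 Gy and 13.1% at 5 Gy, and most of that lay near the 5′ end. Within the first 12 kb, 6 peaks at 0 Gy summed to 7.98 kb (59.0% of the covered length) and 3 peaks at 5 Gy summed to 8.4 kb (59.9%). The highest score was 1382.01 at 0 Gy (chr22:36777678-36780344, 2667 bp, percentile 90.1) and 1609.79 at 5 Gy (chr22:36774811-36780657, 5847 bp, percentile 90.6). That 5 Gy peak lay over 3 peaks of the 0 Gy list. Coverage began 3.7 kb from the 5′ end at 0 Gy and 3.4 kb at 5 Gy.

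Toward the 3′ end MYH9 had no peaks. The last 30.1 kb of its span held no peak in either list, and the last peak before that stretch was chr22:36707887-36710530 (2644 bp, score 365.39) at 0 Gy and chr22:36707428-36710521 (3094 bp, score 150.68) at 5 Gy. Its percentile was 75.6 at 0 Gy and 51.6 at 5 Gy, the second-largest decrease in percentile among the pairs of these genes. Between 12 and 60 kb, MYH9 had 6 peaks at 0 Gy and 5 at 5 Gy, with scores of at most 129.29 and 132.44. Of these, 4 at 0 Gy and 3 at 5 Gy had no match. The strongest unmatched 0 Gy peak of all 7 genes was among them (chr22:36770010-36770609, 600 bp, score 129.29), and a 5 Gy peak lay 0.3 kb away.

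ANXA2 encodes annexin A2, a calcium-dependent protein that binds membranes and actin. Its span (chr15:60639350-60690190, minus strand, 50.8 kb) was covered over 76.1% at 0 Gy and 73.8% at 5 Gy, far more than the other genes longer than 10 kb, which were covered over at most 23.7%. Of the length covered at either dose, 85.0% was covered at both. From the 5′ end to 15.9 kb, ANXA2 was covered at 0 Gy by chr15:60678836-60690190 (11355 bp, score 3100) and chr15:60674302-60678827 (4526 bp, score 2765.63). At 5 Gy a single peak, chr15:60674495-60690108 (15614 bp, score 3100), lay over both. The 0 Gy peak reached the first base of the hg19 span and the 5 Gy peak stopped 82 bp short of it. The ANXA2 window printed above surrounds the RefSeq start of this end in GRCh38, and the match of both starts was not checked. By length the 0 Gy peak of 11355 bp ranked 9 in its list and the 5 Gy peak ranked 3.

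A second tied block of ANXA2 lay between 33 and 43 kb. It consisted of chr15:60647990-60653029 (5040 bp) and chr15:60653123-60656892 (3770 bp) at 0 Gy, and of the single peak chr15:60647961-60656767 (8807 bp) at 5 Gy. Between these blocks, from 16 to 31 kb, 8 peaks at 0 Gy summed to 11.8 kb with scores up to 1860.15, and 9 peaks at 5 Gy summed to 10.97 kb with scores up to 765.91. The 0 Gy peak of 5084 bp at chr15:60668836-60673919 (score 1860.15) faced 3 shorter peaks at 5 Gy, which scored 66.05, 765.91 and 417.29. The last 5.2 kb of ANXA2 toward the 3′ end held no peak in either list. The RefSeq table names 3 pseudogenes after ANXA2, and it places another, RPL36AP44, inside the gene.

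**Figure D3:**
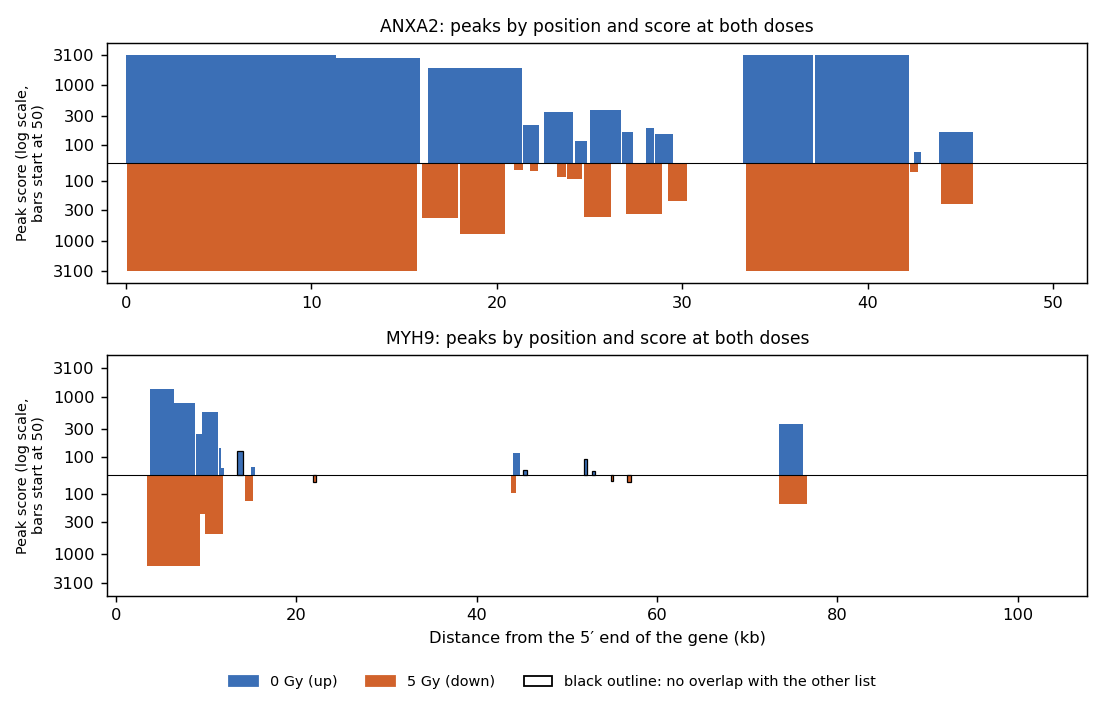
Peaks of ANXA2 (top) and MYH9 (bottom) are drawn by distance from the 5′ end of the gene in kb, with bar height showing the score on a log scale, 0 Gy upward and 5 Gy downward, and a black outline where a peak overlaps none of the other list. ANXA2 has a block at 3100 near the 5′ end and another between 33 and 43 kb at both doses, while MYH9 is highest within 12 kb of its 5′ end and has no peak over its last 30.1 kb.

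CORO1C encodes coronin 1C, a ubiquitous coronin that binds actin filaments and acts with the Arp2/3 complex and cofilin in their turnover. Its span (chr12:109038885-109125372, minus strand, 86.5 kb) was covered over 11.9% at 0 Gy and 23.7% at 5 Gy, and 32.8% of the length covered at either dose was covered at both. In the annotation the noncoding RNA LOC105369968 and the pseudogene RNU7-169P overlap CORO1C, and 1 pseudogene is named after it. The 32.8% was the lowest share of the 6 genes with peaks, the others lying between 60.7% (TPM1) and 95.6% (ACTB). Covered only at 0 Gy were 2662 bp, and covered only at 5 Gy were 12879 bp.

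Beyond 60 kb from its 5′ end CORO1C carried the same number of peaks at both doses. There were 10 in each list, which summed to 6.77 kb at 0 Gy and 8.13 kb at 5 Gy. All 10 at 0 Gy and 9 of 10 at 5 Gy had a match. The last peak covered the 3′ end at both doses, as chr12:109038644-109041433 (2790 bp) at 0 Gy and chr12:109038623-109041358 (2736 bp) at 5 Gy, each with a score of 3100. Its neighbour, starting 82.7 kb from the 5′ end at 0 Gy, scored 2698.18 at 0 Gy and 2250.77 at 5 Gy. The peak at 72.4 kb scored 1480.07 and 1163.52, and that at 69.4 kb scored 236.24 and 682.34.

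Of the 19 unmatched 5 Gy peaks of CORO1C, 18 lay within 60 kb of the 5′ end. Split at the midpoint of the gene, the part toward the 5′ end held 7 peaks at 0 Gy and 14 at 5 Gy, and the part toward the 3′ end held 13 and 18. Within 10 kb of the 5′ end there was no peak at 0 Gy and 4 peaks at 5 Gy, which summed to 3.3 kb and scored from 128.8 to 220.3. The most upstream of them, chr12:109123261-109124446 (1186 bp, score 220.3), was the strongest unmatched 5 Gy peak of the 7 genes, with no 0 Gy peak within 11.1 kb of it. Between 10 and 60 kb there were 10 peaks at 0 Gy, summing to 3.73 kb, and 18 at 5 Gy, summing to 9.31 kb. Of those 18, 14 had no match. Between 45 and 54 kb alone, 3 peaks at 0 Gy faced 8 at 5 Gy. Stronger peaks within 60 kb of the 5′ end were present at both doses. The peak at 30.2 kb scored 1077.04 at 0 Gy and 728.7 at 5 Gy, and the peak at 53.0 kb scored 248.54 and 312.53.

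The unmatched peaks of these genes scored low or near the middle of their lists. Scores of the unmatched peaks of the whole lists were not computed for comparison. Of those at 5 Gy in CORO1C, 8 scored at least 100, and none scored above 220.3 (percentile 63.3). The median score of the 5 Gy list was 143.4. With a minimum score of 100, CORO1C had 10 peaks at 0 Gy and 17 at 5 Gy, and its covered length at 5 Gy was 207.9% of that at 0 Gy. With a minimum of 150 it had 9 and 11 peaks and 154.4%, and with a minimum of 1000 it had 4 at both doses and 113.6%. When peaks within 1 kb were joined, the numbers were 14 and 16, a gain of 2 that TPM1, MYH9 and ANXA2 then showed as well.

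**Figure D4:**
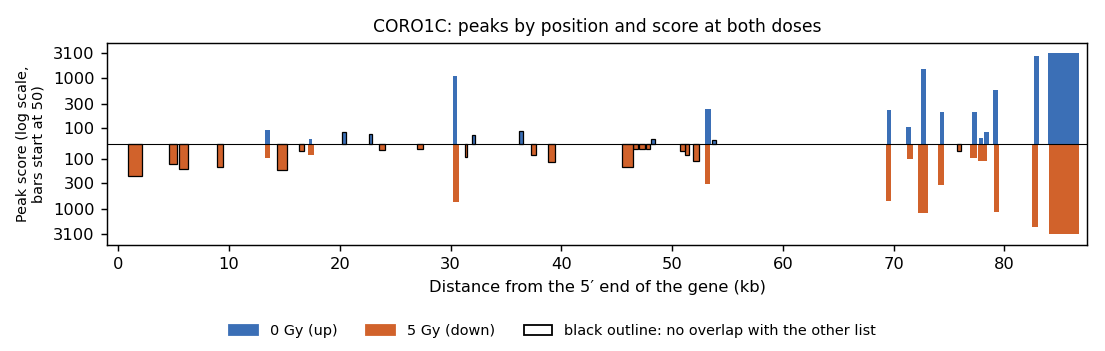
Peaks of CORO1C are drawn by distance from the 5′ end of the gene in kb, with bar height showing the score on a log scale, 0 Gy upward and 5 Gy downward, and a black outline where a peak overlaps none of the other list. The 5 Gy side holds 19 outlined peaks against 6 on the 0 Gy side, all with scores of at most 220.3, and both sides end in a peak at 3100 over the 3′ end.

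VIM encodes vimentin, the main intermediate filament protein of fibroblasts and a standard marker of mesenchymal cells. Its span (chr10:17270258-17279592, plus strand, 9.34 kb) held no peak in either list. The nearest peaks on the 5′ side were 80.8 kb away at 0 Gy (379 bp, score 129.34) and 410.8 kb away at 5 Gy (715 bp, score 194.41). On the 3′ side, a peak 339.7 kb away was listed at both doses, with scores of 155.45 and 206.2. The lists measure HuR over IgG, so a gene without a peak has no level of its RNA in them. VIM-AS1, an antisense RNA, overlaps VIM in the annotation.

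Peaks that lay only against each other, 1 from each list, numbered 23 in 4 of the genes: 12 in CORO1C, 6 in TPM1, 3 in MYH9 and 2 in ANXA2. In ACTB, ACTG1 and the blocks of ANXA2, peaks were split at one dose or overlapped several of the other, so they form no such pairs. In 16 of 23 pairs (69.6%) the peak was longer at 5 Gy, and the median ratio of lengths was 1.18. Over the 19750 such pairs of the lists in full, 58.3% were longer at 5 Gy and the median ratio was 1.03. Both peaks were at 3100 in 2 pairs. Of the others, 9 had a higher and 12 a lower percentile at 5 Gy. CORO1C had 6 higher and 5 lower, and TPM1 had 1 higher and 4 lower. The shares going either way over all pairs of the lists were not computed, so no difference between genes is read from these counts.

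The pair with the largest gain was in MYH9, where a peak 15.0 kb from the 5′ end scored 68.49 at 0 Gy and 132.44 at 5 Gy, and its percentile went from 11.6 to 46.9. A TPM1 peak 18.5 kb from the 5′ end followed, with scores of 71.59 and 137.27 and percentiles of 15.1 and 48.2. Both gains began near the lowest listed score, where small differences in score move percentiles widely. The CORO1C peak 17.2 kb from the 5′ end, with scores of 60.78 and 82.67, gained 22.8 points. The largest loss was in CORO1C, at 77.0 kb, with scores of 211.58 and 97.81 and percentiles of 64.1 and 32.9. Percentiles cannot rise above that of the tie, 97.3 at 0 Gy and 97.1 at 5 Gy, so they move little for strong peaks even where scores differ widely. The TPM1 peak of 677 bp, with scores of 3100 and 1384.41, thus fell by 7.78 points, and the CORO1C peak at 78.9 kb, with scores of 569.04 and 1123.8, gained 5.92 points.

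**Figure D5:**
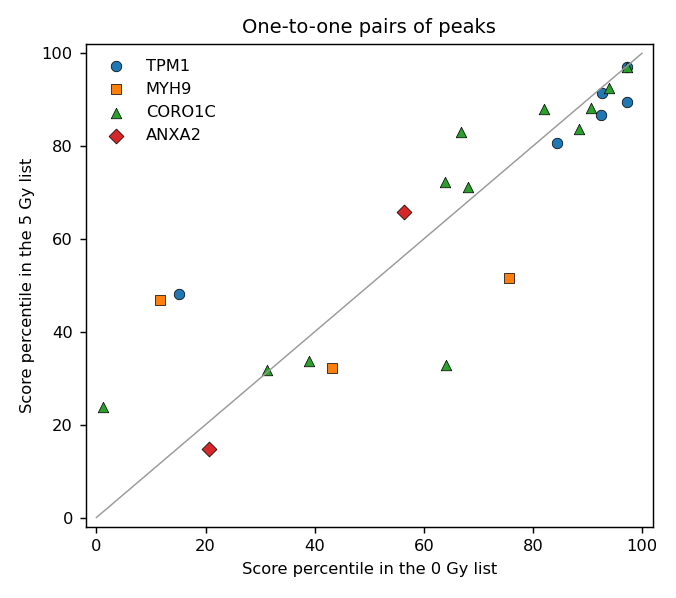
Each point is a pair of peaks lying only against each other, placed by the percentile of its score in the 0 Gy list (x axis) and in the 5 Gy list (y axis), with the marker showing the gene and the line marking equal percentiles. The pairs with both peaks at the tie, 1 of TPM1 and 1 of CORO1C, lie at the upper right close to the line. The MYH9 pair at 11.6 and 46.9, the TPM1 pair at 15.1 and 48.2 and the CORO1C pair at 64.1 and 32.9 lie farthest from it.

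By where their coverage lay, the 6 genes fell into different arrangements. In CORO1C, the last 20% of the gene held 63.7% of its coverage at 0 Gy and 38.4% at 5 Gy. In MYH9 that end held none at either dose, and the first 20% held 66.5% at 0 Gy and 65.8% at 5 Gy. ANXA2 had 26.3% and 26.9% of its coverage in its first 20%, and 9.63% and 9.83% in its last 20%. The first 20% of TPM1 held 28.8% of its coverage at 0 Gy and 19.4% at 5 Gy. The share in the first 20% of CORO1C was 5.57% at 0 Gy and 25.8% at 5 Gy.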

How the data were processed

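RNA recovered with HuR or IgG was sequenced from WS1 cells at 0 Gy and 5 Gy, 1 library each. The submitters' processing notes name cutadapt 1.9.1, Bowtie2 2.2.4 and the build hg19. The authors deposited 1 list per dose with positions and a peak score, and the peak names begin with MACS. The dose of each list was taken from its name. The names also carry 1e-06, 10 and 30, and neither the caller's version nor its settings are stated there. Peaks were assigned to the 7 genes by an overlap of at least 1 bp, clipped to the span for covered length, and called shared when overlapping the other list by at least 1 bp (Python 3.11.15, numpy 2.4.6, scipy 1.17.1). Percentiles set scores above 3100 equal to 3100. Shares have Wilson 95% intervals, which cover counting error only. Overlap counting was tested on simulated data. All 7 genes are named. Of their peaks, the strongest and longest of each gene and list, the strongest unmatched ones and the most different pairs were to be named. Others, and the stretches in kb, were picked after their values were seen. The genes and lists were chosen with earlier results of these data known. A list of other cytoskeleton genes and one of cell type markers were not analysed here, for want of hg19 positions. Alternatives were other rules of membership, minimum scores, equal list sizes, wider spans, joined peaks, a stricter overlap and each gene left out.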

Additional observations from a re-analysis of the deposited data

How the results depend on the processing

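Of 160 recomputed values, 57 concern sums over the 7 genes, of which 35 were unchanged or inside the reported interval. The peak number at 5 Gy as a percentage of that at 0 Gy (104.7%) fell below 100% at scores of at least 100 (93.2%), 150 (89.2%, a minimum added after the data were seen) and 1000 (73.7%), and without CORO1C (79.5%). It rose to 134.0% with lists of equal size (50 and 67 peaks) and to 127.6% with peaks within 1 kb joined (29 and 37). The covered length at 5 Gy (113.1%) was below 100% at a score of at least 1000 (95.6%) and without CORO1C (99.2%). It was 107.0% at a score of at least 100, 104.7% at 150, 120.7% with lists of equal size, 113.4% with spans widened by 1 kb, 113.4% with whole peaks, and 112.5% with peaks within 1 kb joined. It was 113.8% without ACTB, 113.2% without ACTG1, 114.3% without TPM1, 115.2% without MYH9 and 130.9% without ANXA2. The share of 0 Gy peaks with a match (81.2%) was 90.0% with lists of equal size and 43.8% when the overlap had to reach 50% of both peaks. The share of 5 Gy peaks with a match (64.2%) was 92.9% at a score of at least 1000, 41.8% with that 50% rule and 85.7% without CORO1C. Among values for single genes, 72 of 103 counted as kept. Kept meant equal for differences in peak number, and within 1.5 times and on the same side of 100% for percentages of length. None turned a difference of at least 1.5 times the other way. Smaller differences did turn: 3 of 49 in peak number (TPM1, MYH9 and ANXA2, with peaks joined) and 8 of 48 in covered length (TPM1 in 5, ACTB in 2 and MYH9 in 1). No paired analysis was possible because no group holds more than 1 library. Unknown depth, which sets how many weak peaks pass the threshold, limits every comparison of peak numbers.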
